A study of Mus musculus with 5 samples.

Results

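NEUROD2 occupancy was examined at the loci of the SoxC genes Sox4, Sox11 and Sox12, in peak lists from the cerebral cortex of BALB/c mouse embryos at embryonic stage E14.5. Chromatin was immunoprecipitated with 3 antibodies against NEUROD2 (ab1, ab2 and ab3) and with 2 control antibodies against GFP, and each antibody gave 1 sequenced library (ChIP-Seq). The tissue of each experiment came from the pooled cortices of embryos of several litters, so all cell types of the E14.5 cortex contributed. All libraries share the same genotype, age and tissue, and no treatment or mutant was compared. Peaks were assigned to a SoxC gene when their midpoint lay within 500 kb of its transcription start site (TSS) and no other protein-coding TSS was closer, and overlapping peaks were merged into regions. This gave 101 regions of 51063 assigned to all 21938 protein-coding genes, with 52 for Sox11, 47 for Sox4 and 2 for Sox12.

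SOX4, SOX11 and SOX12 are transcription factors that bind DNA through a high-mobility-group (HMG) box and activate transcription through a domain at their carboxy terminus. In the developing cortex SOX4 and SOX11 are known for acting after the proneural basic helix-loop-helix (bHLH) factors, SOX4 in intermediate progenitors and SOX11 in newborn neurons, where they activate genes of the neuronal phenotype. SOX12 is the weaker activator of the group. NEUROD2 is a neuronal bHLH factor that binds E-boxes, short elements with the letters CANNTG.

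Of the 94621 peaks deposited, 51841 were those of ab1, 35310 those of ab2 and 7470 those of ab3, and 89454 were assigned to a coding gene. The score of a peak is 10 times the −log10 of the p-value that the peak caller MACS gave against a GFP library. Scores were not scaled between libraries, the lowest was 50 in ab1 and ab2, and many of the strongest peaks of ab1 tied at 3100. A score therefore orders peaks within 1 antibody and does not measure occupancy between antibodies. The 3 antibodies are 3 measurements of the same condition and do not serve as biological replicates. Each has 1 library, so antibody and library cannot be told apart, and spreads over the 3 antibodies are given as SDs. The values used here come from the NEUROD2 group alone, and no test between groups was made.

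All 3 genes lie on the minus strand. Sox4 spans chr13:28948919-28953713, Sox11 spans chr12:27334264-27342574 and Sox12 spans chr2:152393611-152398063 of the mm10 build. Each TSS was covered by a region, as were those of 32.7% of coding genes, and this is shared by all 3 members. The sequences just before the 3 start sites are shown first, because the TSS region is the binding event that the loci have in common. They were taken from RefSeq (GRCm38.p6, minus strand), where all 3 genes were found, and cut before the most upstream start of the gene in RefSeq or GENCODE. Capitals mark CANNTG and, for Sox12, the octamer ATGCAAAT of POU factors, which overlaps a CANNTG.
Sox4, chr13:28953714-28953949: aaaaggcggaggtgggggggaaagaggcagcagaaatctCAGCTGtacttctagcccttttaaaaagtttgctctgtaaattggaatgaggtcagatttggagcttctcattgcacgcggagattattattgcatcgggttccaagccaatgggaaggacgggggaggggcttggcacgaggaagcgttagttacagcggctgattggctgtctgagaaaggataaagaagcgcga
Sox11, chr12:27342719-27342968: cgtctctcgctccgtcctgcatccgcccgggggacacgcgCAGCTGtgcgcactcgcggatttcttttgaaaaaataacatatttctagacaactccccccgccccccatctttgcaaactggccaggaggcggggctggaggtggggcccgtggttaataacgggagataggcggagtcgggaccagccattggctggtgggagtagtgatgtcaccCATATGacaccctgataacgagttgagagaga
Sox12, chr2:152398064-152398296: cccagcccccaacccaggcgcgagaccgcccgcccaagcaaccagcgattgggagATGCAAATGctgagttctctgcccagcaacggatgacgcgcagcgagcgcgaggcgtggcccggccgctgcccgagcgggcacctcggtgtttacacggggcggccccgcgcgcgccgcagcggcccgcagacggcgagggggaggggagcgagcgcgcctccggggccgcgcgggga

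The Sox4 and Sox11 sequences each held a CAGCTG followed by T, which is a form of the extended E-box that the study derived from its peaks. On both strands the search took the core CAGCTG, the core CAGATG and its reverse complement CATCTG, and the core CATATG, each followed by G or by T, and a core that matched on both strands was counted once. The CAGCTG began 197 bases before the end of the Sox4 sequence and 210 bases before the end of the Sox11 sequence, and Sox11 held a second extended E-box, CATATG, 32 bases before the end. The Sox12 sequence held none, and its only CANNTG was the CAAATG that overlaps the octamer match, which began 178 bases before the end. Of 32851 RefSeq promoters, 22% had an extended E-box in the 250 bases before the start, 66.2% any CANNTG and 1.60% the octamer on either strand. These matches describe letters and not occupied sites.

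The regions over the 3 start sites were alike in width and in the antibodies that detected them. The Sox4 region, chr13:28951136-28954269, was 3134 bp wide and had its midpoint in the coding part of the single Sox4 exon, with a score of 871.02 for ab1 and 369.1 for ab2. The Sox11 region, chr12:27340853-27344073, was 3221 bp wide and had its midpoint in the exon of the 5′ untranslated part, with 3100 for ab1 and 1674.82 for ab2. The Sox12 region, chr2:152396000-152399656, was 3657 bp wide with its midpoint in the 5′ untranslated exon, and scored 883.84 for ab1 and 397.53 for ab2. None of the 3 had a peak of ab3. Sox11 was thus high and Sox4 and Sox12 close to each other with both antibodies. Of the 7171 regions over a coding TSS, 50.6% had peaks of ab1 and ab2 only and 4.39% had all 3 antibodies, so the absence of ab3 is the common state there. The widths stood near the upper end, since the median region over a coding TSS was 1220 bp wide and 137, 122 and 63 of the 7171 were wider than those of Sox4, Sox11 and Sox12. The ab1 score of Sox11 was tied at 3100 with 31 other regions over a coding TSS, with 5 higher. Of these 7171 regions, 465 scored above Sox12 and 477 above Sox4 with ab1, and the median over the 6720 with an ab1 peak was 156.4.

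The Sox11 TSS region combined an ab1 score of 3100 with no peak of ab3, which was uncommon among all regions of that score. Of 685 regions in which ab1 reached 3100 or more, 7 lacked a peak of ab3, and 5 of these 7 lay over a coding TSS. At such scores ab3 had a peak in 86.5% of 37 regions over a coding TSS and in 99.7% of 648 regions elsewhere. Among all regions with an ab1 score from 1000 to below 3100, ab3 had a peak in 45.5% of 356 regions over a coding TSS and in 84.6% of 3607 regions elsewhere. These comparisons were chosen after the values were seen.

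**Figure D1:**
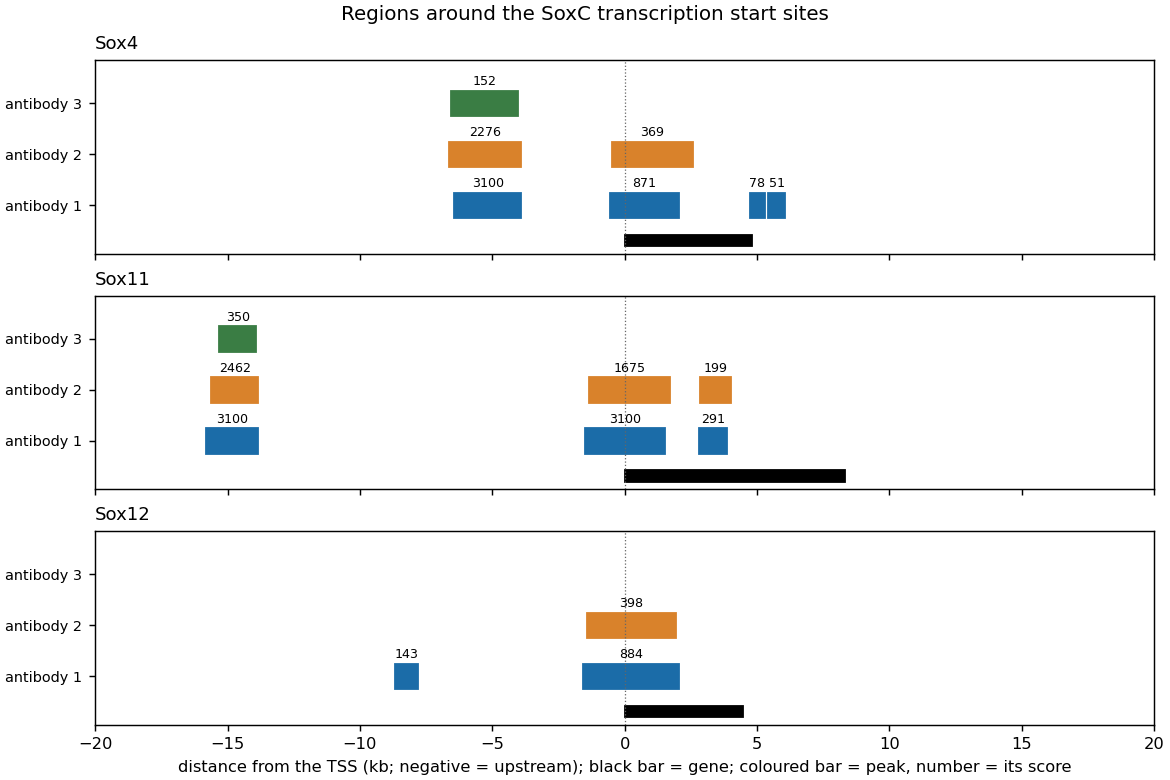
Peaks within 20 kb of the TSS of Sox4, Sox11 and Sox12, with the distance from the TSS in kb on the x axis and 1 row per antibody. Coloured bars span the peaks, the number above a bar is its score and the black bar is the gene. Peaks of ab1 and ab2 cover all 3 start sites, and the only ab3 peaks lie upstream, 5.3 kb from the Sox4 TSS and 14.8 kb from the Sox11 TSS.

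Close to the genes the loci differed in what stood beside the TSS region. Sox4 had a second strong region 5.3 kb upstream, chr13:28957613-28960339, which lies between genes and scored 3100, 2276.22 and 152.27 with ab1, ab2 and ab3. It outscored the Sox4 TSS region with ab1 and ab2, and no other region within 10 kb of the 3 start sites had all 3 antibodies. Downstream of Sox4, 2 weak regions of ab1 alone followed at 5.0 and 5.7 kb, with scores of 78.23 and 50.68, and their midpoints lay in introns of the long noncoding RNA gene Gm26735. Sox11 had 1 more region within 10 kb, 3.4 kb downstream of the TSS in the 3′ untranslated part of its exon, with 291.49 for ab1 and 199.03 for ab2. The second region of Sox12 lay 8.2 kb upstream between genes, and ab1 alone detected it, with a score of 143.08. The closest region to Sox11 with all 3 antibodies was 14.8 kb upstream, chr12:27356415-27358398, where ab1, ab2 and ab3 scored 3100, 2461.64 and 350.35.

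Sox11 and Sox4 were among the coding genes with the most regions, and Sox12 was not. For Sox11, ab1 gave 50 peaks, ab2 40 and ab3 16 (35.3 ± 17.5, SD over 3 antibodies). For Sox4, ab1 gave 49 peaks, ab2 32 and ab3 7 (29.3 ± 21.1). For Sox12, ab1 gave 2 peaks, ab2 1 and ab3 none, and without ab1 its count of regions fell from 2 to 1. The order of the antibodies was the same at each gene and is that of the whole lists. With 1 library per antibody, the SDs do not tell differences between antibodies from those between libraries. Sox11 had more peaks than Sox4 with each of the 3 antibodies. Of all coding genes, 57.6% had at least 1 region, 4 had more regions than Sox11, 11 had more than Sox4 and 5228 had more than Sox12. The highest number was 74, at Zfp608.

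The counts went with the distance to neighbouring coding genes. The stretch in which the TSS was the closest coding TSS, up to 500 kb on each side, was 936.7 kb long for Sox11, 799.1 kb for Sox4 and 19.2 kb for Sox12. The next coding start sites lay 696.2 and 901.9 kb from that of Sox4 (Gm11361 and Cdkal1) and 873.4 and 1205.8 kb from that of Sox11 (Cmpk2 and Dcdc2c). For Sox12 they lay 21.4 and 17.0 kb away (Nrsn2 and Zcchc3), and 32 other coding start sites fell within 500 kb. Per 100 kb of this stretch there were 5.55 regions at Sox11, 5.88 at Sox4 and 10.4 at Sox12, the last from 2 regions only, against 2.17 over all coding genes. By this density 3659 coding genes stood above Sox11, 3335 above Sox4 and 1203 above Sox12, which reverses the order of the counts. When every region within 500 kb was counted regardless of the closest gene, which was tried after the data were seen, the numbers were 58 around Sox4, 56 around Sox11 and 50 around Sox12. The 50 regions around Sox12 were assigned to 17 coding genes, those around Sox4 to 3 and those around Sox11 to 2.

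**Figure D2:**
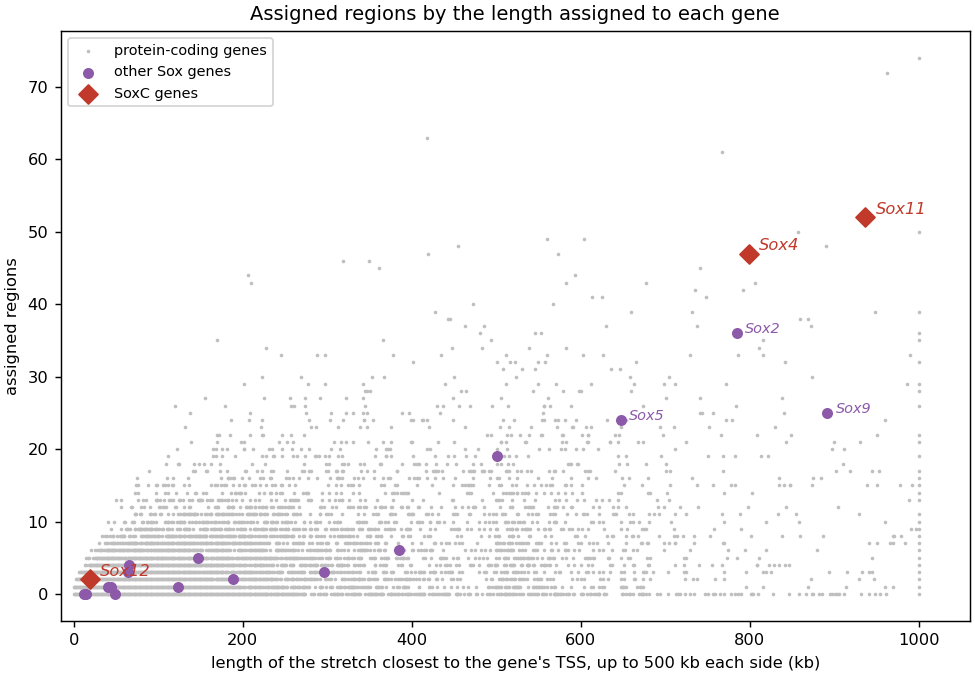
Number of assigned regions (y axis) by the length of the stretch closest to each coding TSS in kb (x axis, up to 500 kb each side). Grey points are combinations of length and number among all coding genes, purple points the 16 other Sox genes and red diamonds the SoxC genes. Sox11 and Sox4 stand at 52 and 47 regions with long stretches and Sox12 at 2 regions on 19.2 kb.

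The 2 large loci differed in the number of regions that all 3 antibodies detected. Sox11 had 16 such regions of 52, or 30.8% (95% Wilson interval 19.9 to 44.3%), and Sox4 7 of 47, or 14.9% (7.41 to 27.7%). Of all regions 13.2% had all 3 antibodies, so the Sox4 share was near this background, and the Sox11 interval lay above it. Of the coding genes next to Sox11, Cmpk2 downstream had 14 such regions of 38 and Dcdc2c upstream 2 of 22. A high number was thus not particular to Sox11 in this part of the chromosome. The intervals of the 2 genes overlapped. They cover counting error only and treat the regions of a locus as independent. Of coding genes, 16.7% had at least 1 region with all 3 antibodies, 1 gene had more of them than Sox11 (Galnt17, with 17) and 46 had more than Sox4. Regions of 2 antibodies numbered 22 at Sox11, 21 at Sox4 and 1 at Sox12, and those of a single antibody 14, 19 and 1. Single-antibody regions were those of ab1 in 12 of 14 cases at Sox11 and 17 of 19 at Sox4.

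Regions with ab3 peaks were mostly those where ab1 scored high. At Sox11 the ab1 scores of the 16 regions with all 3 antibodies ran from 199.42 to 3100 with a median of 1671, and those of the 22 regions with 2 antibodies from 52.1 to 3100 with a median of 257.6. At Sox4 the ab1 scores of the 7 regions with all 3 antibodies ran from 466.5 to 3100 with a median of 1506, and those of the 21 regions with 2 antibodies from 55.12 to 1489.06 with a median of 232.0. The classes overlapped at both genes. Over all regions with an ab1 peak the median ab1 score was 281.8 at Sox11 and 135.4 at Sox4. Whether this goes with the different numbers of regions with all 3 antibodies was not tested. Over the SoxC regions that both antibodies of a pair detected, Pearson's r of the log10 scores was 0.93 for ab1 and ab2 (67 regions), 0.81 for ab1 and ab3 (23) and 0.88 for ab2 and ab3 (23), against 0.88, 0.68 and 0.77 over all regions of each pair. Regions of a locus are not independent, the peaks of ab2 and ab3 were called against 1 shared GFP library, and these values are descriptions.

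**Figure D3:**
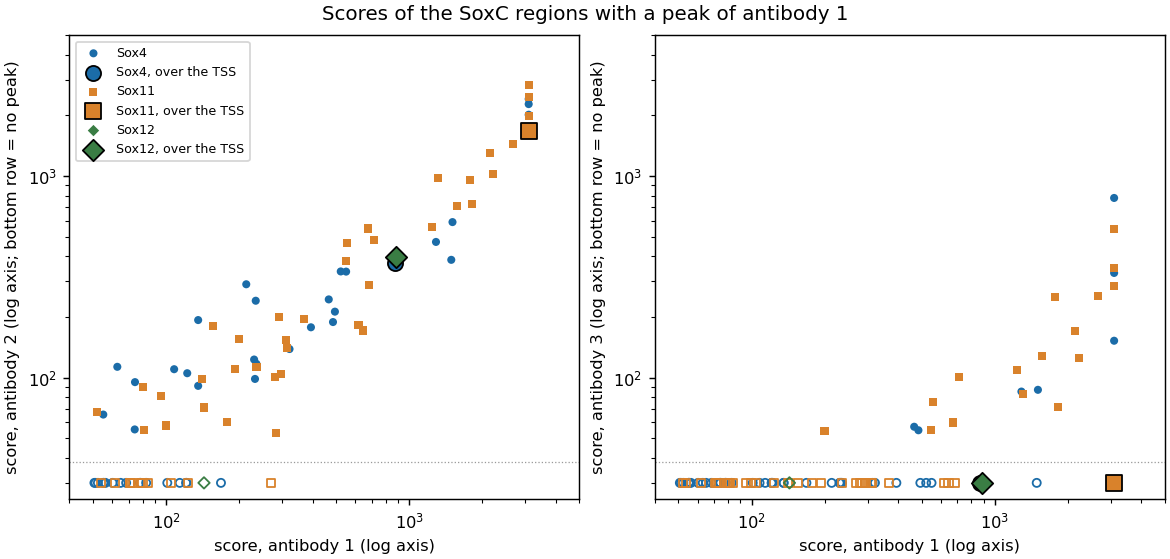
Scores of SoxC regions with a peak of ab1, with the ab1 score on the x axis and the score of ab2 (left) or ab3 (right) on the y axis, all log axes. Blue circles are Sox4, orange squares Sox11 and green diamonds Sox12, large outlined symbols cover the TSS, and symbols under the dotted line have no peak of the second antibody. The Sox11 TSS region is at 3100 for ab1 and has no ab3 peak.

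The regions of Sox4 lay mostly in introns of other genes and those of Sox11 mostly between genes. At Sox4, 43 of 47 midpoints (91.5%) were in introns, 3 were intergenic, among them the region 5.3 kb upstream, and 1 was in the Sox4 exon. Introns of the noncoding gene 2610307P16Rik held 27 of them, from 96.4 to 346.0 kb downstream of the Sox4 TSS. Introns of Cdkal1, which encodes a tRNA-modifying methylthiotransferase, held 13, from 241.8 to 446.5 kb upstream. At Sox11, 36 of 52 midpoints (69.2%) were intergenic, 13 were in introns and 3 in exons. Of all regions, 50.1% had the midpoint in an intron and 37% between genes, and the regions of a locus share their host genes, so these shares describe where the loci lie. Introns of the noncoding gene Gm9866 held 12, from 202.1 to 288.0 kb downstream of the Sox11 TSS. Assignment by the closest coding TSS does not show which gene a distal region acts on, and the closest TSS of any gene type was that of Sox4 for 3 of 47 regions, of Sox11 for 10 of 52 and of Sox12 for both of its regions.

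Both loci held long stretches without a region. At Sox4 the widest, 161.0 kb between neighbouring midpoints, ran from 80.8 to 241.8 kb upstream, and others of 57.4 and 48.9 kb flanked the gene, from 5.3 to 62.6 kb upstream and from 5.7 to 54.6 kb downstream. Thus the 4 regions within 10 kb of the Sox4 TSS stood apart from the distal ones. At Sox11 the widest, 122.9 kb, ran from 79.2 to 202.1 kb downstream. The next 2 lay upstream of Sox11, 95.4 kb from 394.3 to 489.8 kb and 51.3 kb from 331.0 to 382.4 kb. Sox11 had 30 regions upstream and 22 downstream, and Sox4 had 16 upstream and 31 downstream. Of the regions with all 3 antibodies, 11 lay upstream and 5 downstream of Sox11, and 3 upstream and 4 downstream of Sox4. The farthest regions were at 496.3 kb upstream and 407.0 kb downstream of Sox11, and at 446.5 kb upstream and 346.0 kb downstream of Sox4.

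**Figure D4:**
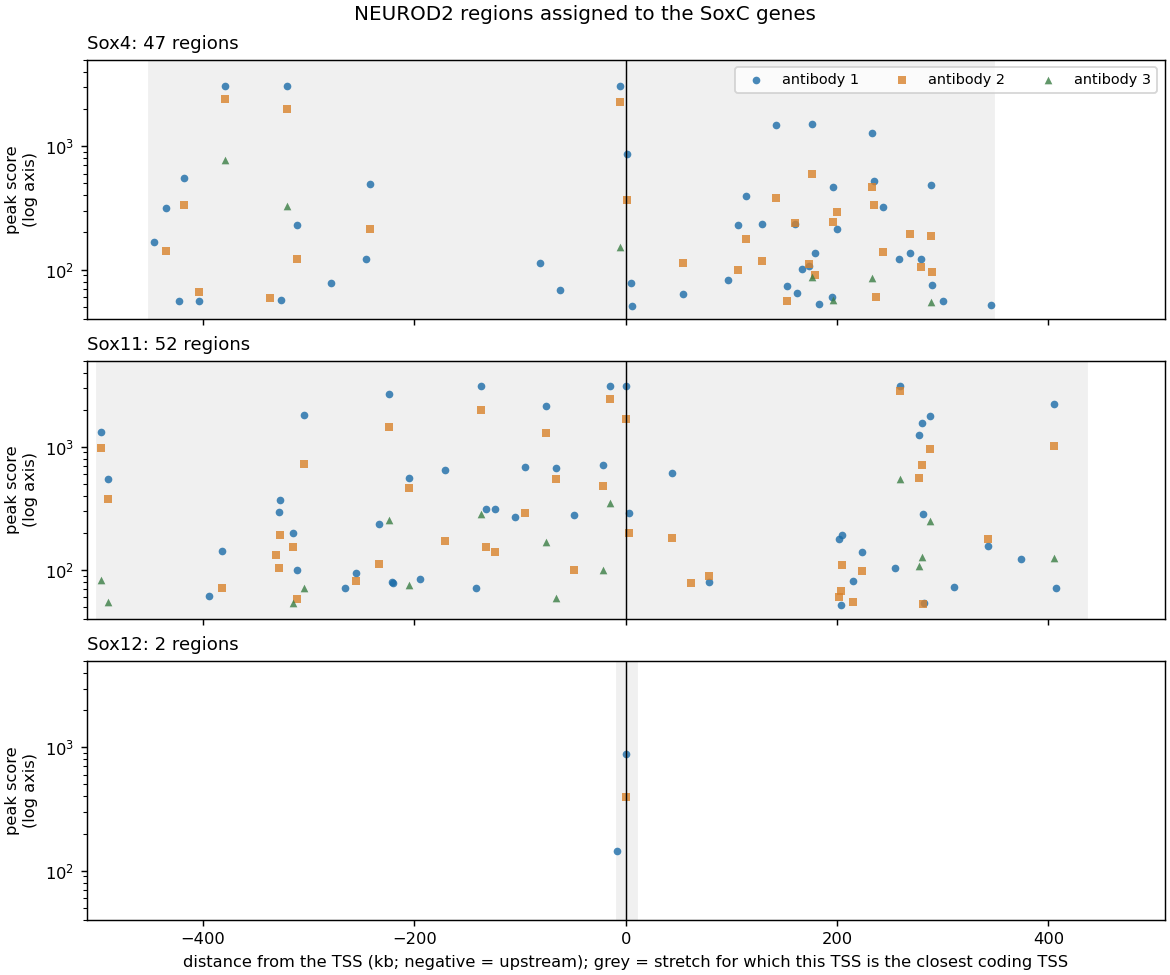
Peak scores (y axis, log scale) of the regions assigned to Sox4, Sox11 and Sox12 by distance from the TSS in kb (x axis, negative upstream). Blue circles are ab1, orange squares ab2 and green triangles ab3, and grey marks the stretch closest to the TSS. The 3 strongest Sox4 regions lie upstream, and 27 regions lie from 96.4 to 346.0 kb downstream.

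Peaks with a score of 3100 or more were found in 1.34% of all regions, in 3 regions of Sox4 and in 4 of Sox11, and in none of Sox12. The strongest Sox4 region lay 379.2 kb upstream in an intron of Cdkal1, chr13:29332301-29333441, and scored 3100, 2412.93 and 778.66 for ab1, ab2 and ab3. Only 71 of the 6877 regions with an ab3 peak had a higher ab3 score. The others at Sox4 were the region 5.3 kb upstream and 1 at 320.5 kb upstream, also in an intron of Cdkal1, chr13:29273136-29275265, with 3100, 2016.13 and 330.47. All 3 of these lay upstream, and the highest score among the 31 regions downstream of the Sox4 TSS was 1506.25 for ab1, at 175.9 kb. The strongest Sox11 region lay 259.3 kb downstream in an intron of Gm9866, chr12:27082319-27084231, and scored 3100, 2844.35 and 543.57, with 183 regions higher in ab3. The others were the region 14.8 kb upstream, the TSS region, and 1 at 137.2 kb upstream between genes, chr12:27479364-27480283, with 3100, 1979.14 and 284.79.

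The central 200 bp of the 3 strongest regions of Sox4 and of Sox11 with the highest summed scores are shown because the E-box content of these windows is described next. They are read from the plus strand of mm10, none touches an annotated exon, and capitals mark every CANNTG.
Sox4, 379.2 kb upstream, chr13:29332771-29332970: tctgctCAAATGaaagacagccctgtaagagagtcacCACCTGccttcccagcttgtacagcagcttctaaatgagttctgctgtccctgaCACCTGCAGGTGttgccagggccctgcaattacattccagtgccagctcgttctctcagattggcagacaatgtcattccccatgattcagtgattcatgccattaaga
Sox4, 5.3 kb upstream, chr13:28958876-28959075: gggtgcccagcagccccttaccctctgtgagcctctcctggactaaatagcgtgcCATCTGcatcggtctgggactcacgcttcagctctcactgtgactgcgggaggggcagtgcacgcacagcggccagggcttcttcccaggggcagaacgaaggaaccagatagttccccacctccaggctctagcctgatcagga
Sox4, 320.5 kb upstream, chr13:29274101-29274300: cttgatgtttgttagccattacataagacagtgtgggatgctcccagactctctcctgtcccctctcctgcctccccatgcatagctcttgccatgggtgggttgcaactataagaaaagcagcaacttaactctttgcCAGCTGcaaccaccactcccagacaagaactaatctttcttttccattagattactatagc
Sox11, 259.3 kb downstream, chr12:27083175-27083374: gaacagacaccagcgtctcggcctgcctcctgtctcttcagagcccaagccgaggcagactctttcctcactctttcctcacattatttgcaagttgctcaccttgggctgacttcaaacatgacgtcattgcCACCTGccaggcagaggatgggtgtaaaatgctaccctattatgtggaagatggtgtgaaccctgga
Sox11, 14.8 kb upstream, chr12:27357307-27357506: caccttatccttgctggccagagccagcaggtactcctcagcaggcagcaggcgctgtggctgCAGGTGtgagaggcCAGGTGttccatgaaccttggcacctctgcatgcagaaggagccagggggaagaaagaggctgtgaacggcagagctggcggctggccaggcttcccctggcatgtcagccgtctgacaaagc
Sox11, 137.2 kb upstream, chr12:27479724-27479923: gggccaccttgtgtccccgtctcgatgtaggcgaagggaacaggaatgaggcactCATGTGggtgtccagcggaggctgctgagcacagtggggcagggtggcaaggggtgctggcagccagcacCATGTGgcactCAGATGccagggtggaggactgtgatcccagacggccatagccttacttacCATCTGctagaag

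All 6 windows held a CANNTG, from 1 to 4 of them, as did 82.5% of the central windows of all regions. An extended E-box was in 3 of the 6, against 54.9% of the central windows of all regions with a score of 3100 or more, and these 3 were the Sox4 windows at 5.3 and 320.5 kb and the Sox11 window at 137.2 kb. The Sox4 window at 379.2 kb carried instead a pair of abutting E-boxes, CACCTGCAGGTG, with 1 more CACCTG and a CAAATG. The Sox11 window at 14.8 kb held CAGGTG at 2 positions and that at 259.3 kb a single CACCTG. Over their whole length all 6 regions held extended E-boxes, between 1 and 6 cores each, as did 99% of all regions with such scores.

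Of the 101 SoxC regions, 51 held an extended E-box in their central 200 bp, or 50.5% (95% Wilson interval 40.9 to 60.0%), against 57.9% of all regions. In windows of the same width that began 1000 bp beyond the region ends, it was found in 16.8% on the left and 19.8% on the right, against 22.5% on either side for all regions. The share was 48.9% (23 of 47) at Sox4 and 53.8% (28 of 52) at Sox11, with intervals of 35.3 to 62.8% and 40.5 to 66.7% that overlapped widely, and 0 of 2 at Sox12. The central windows thus held the motif more often than the flanks, and the SoxC share did not stand above that of all regions. Of regions farther than 10 kb from the TSS, 53.8% (50 of 93, interval 43.7 to 63.5%) held it at the SoxC loci, against 65.7% of all such regions. In this class, which holds most of the SoxC regions, the SoxC interval lay below the share of all regions. In whole regions it was found in 83.2% of the SoxC regions and 85.4% of all regions.

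The 3 TSS regions had no extended E-box in their central 200 bp, as was the case for most regions over a coding TSS, of which 16.2% held one. Their central windows were rich in G and C, with 61.0% at Sox4, 76.5% at Sox11 and 83.0% at Sox12, against a median of 68.5% over coding start sites. Over their whole width they held 2 cores at Sox4, 2 at Sox11 and 3 at Sox12. At Sox4 and Sox11 these include the CAGCTG printed above, which lies inside the region.

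**Figure D5:**
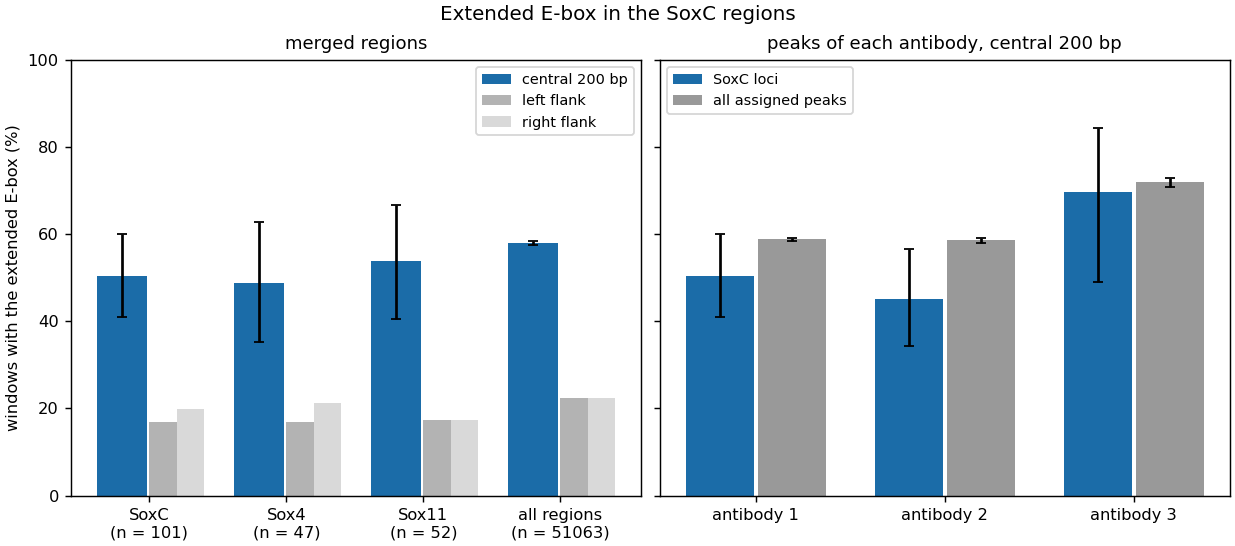
Percent of 200-bp windows with an extended E-box (y axis). The left panel shows merged regions of the SoxC genes together, of Sox4, of Sox11 and of all genes, with the central window in blue and flanking windows in grey, and the right panel shows the central windows of each antibody's own peaks. Error bars are 95% Wilson intervals, and the SoxC bar of 50.5% exceeds both flanks and its interval includes the 57.9% of all regions.

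Counted by the midpoints of each antibody's own peaks, the extended E-box was in 50.5% of 101 SoxC peaks of ab1, 45.2% of 73 of ab2 and 69.6% of 23 of ab3, against 58.8%, 58.6% and 72.0% of all assigned peaks. The ab3 share was highest in both sets, and the SoxC intervals of ab1 (40.9 to 60.0%) and ab3 (49.1 to 84.4%) overlapped. That of ab2 (34.3 to 56.6%) lay below the 58.6% of all ab2 peaks. By the midpoints of merged regions with all 3 antibodies, the extended E-box was in 52.2% of 23 at the SoxC loci. The share was 62.7% of all 6716 such regions, so the SoxC value for ab3 depends on the midpoint used. Among the CANNTG forms, with both strands folded, CAGATG was in 39 of the 101 central windows (38.6%), CAGCTG in 32 (31.7%) and CACATG in 27 (26.7%), against 41.4%, 28% and 16.8% of all regions. The first 2 are cores of the extended motif, and CACATG is not. The letters AACAAAG or AACAATG of HMG-box factors, searched on both strands, were in 4 central windows (3.96%, against 6.17% of all regions) and the octamer ATGCAAAT in 1 (0.99%, against 1.54%).

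A gene score that sums a weight over the assigned regions of a gene, falling exponentially with distance from the TSS at a decay length of 5000 bp, was 1.85 for Sox4, 1.55 for Sox11 and 1.15 for Sox12. From the peaks of ab1, ab2 and ab3 taken alone it was 1.90, 1.16 and 0.347 for Sox4 (SD 0.777), 1.57, 1.53 and 0.0680 for Sox11 (SD 0.858), and 1.15, 0.953 and 0 for Sox12 (SD 0.614). Sox12 was lowest with each antibody, while Sox4 was above Sox11 with ab1 and ab3 and below it with ab2. Scores were higher in 408, 953 and 2020 coding genes, and the median over coding genes was 0.00781. By this score, in which distal regions count little, Sox12 stood much closer to the others than by the number of regions. The order of Sox4 and Sox11 turned at decay lengths of 1000 bp (0.379 and 0.927) and 50000 bp (5.42 and 5.90), without ab1 (1.16 and 1.53) and with regions of at least 2 antibodies (1.17 and 1.55). At 1000 bp Sox12 (0.791) also stood above Sox4, which was then the lowest of the 3. The TSS region was centred 0.1 kb from the TSS at Sox11 and 1.0 kb from it at Sox4.

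Of the 16 other Sox genes, 13 had a region, 7 had a region with all 3 antibodies, 4 had a region midpoint within 1 kb of the TSS and 6 a region over it. None had as many regions as Sox4. The highest were Sox2 (36), which marks neural progenitors, Sox9 (25), a gliogenic and progenitor factor, and Sox5 (24), a factor of deep-layer projection neurons. Of 9 factors placed upstream of or beside the SoxC proteins, all had a region, 6 had one with all 3 antibodies and 6 had one within 1 kb of the TSS. The most regions were at Insm1 (33), a zinc-finger factor of basal progenitors, Pou3f3 (21), a POU factor, and Neurod6 (13), a bHLH factor close to NEUROD2. Of 7 genes named as SoxC targets, all had a region, 2 had one with all 3 antibodies and 5 had one within 1 kb, with the most at Prox1 (26), a homeobox factor, Fezf2 (20), a factor of subcerebral projection neurons, and Map2 (7), a microtubule protein of dendrites. These shares stand against 57.6% of coding genes with any region, 16.7% with a region of all 3 antibodies and 33.9% with a region midpoint within 1 kb of the TSS, and the lists differ in how far their genes stand apart, so nothing is read from them about the lists.

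The layout of peaks was compared between genes by Pearson's r over 36 values, the peak counts of 3 antibodies in 12 bins of signed distance from the TSS, among 2649 other coding genes with at least 10 peaks. The pattern most like Sox4 was that of Tcf4 (0.96), which encodes an E protein that pairs with bHLH factors, followed by Ldb2 (0.95) and Slc7a11 (0.94). The pattern most like Sox11 was that of Prkd1 (0.88), followed by Luzp2 (0.87) and Tshz3 (0.85). Sox4 and Sox11 were less alike, with r = 0.50. The bins share libraries and widen with distance, so these values are descriptions of layout. Sox12 had too few peaks for this comparison.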

How the data were processed

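The authors aligned single-end reads to mm10 with Bowtie, discarded PCR duplicates and multiply mapped reads, and ran MACS for each NEUROD2 antibody, with the mouse GFP library as control for ab1 and the rabbit GFP library for both ab2 and ab3. The deposited lists give each peak's position and a score, 10 times the −log10 p-value of the authors' peak caller, unscaled between libraries. Read depth was not used here, and the GFP libraries were not analysed here beyond their part in the peak calls. Positions are printed from 1.

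Midpoints were assigned to the closest protein-coding TSS of GENCODE M21 (longest transcript per gene), within 500 kb. Peaks overlapping by at least 1 bp were merged per gene. Motifs were searched in GRCm38 sequence. BALB/c differs in strain from this reference. Shares carry 95% Wilson intervals for counting error. The decay length of the gene score is not given in the sources used here, so 5000 bp was taken.

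The members and gene lists were chosen with earlier results of these data known. Regions named were all those within 10 kb of a TSS, the 3 with the highest scores per gene (ties by summed score) and the farthest on each side. The strongest Sox4 region downstream, at 175.9 kb, and the Sox11 region at 590.0 kb were chosen after their values were seen. For each gene list the 3 genes with the most regions were named, and for layout the 3 highest r. The only other genes named are neighbours, hosts of regions and the genes with the most regions.

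Scripts used Python 3.11.15, numpy, pandas, scipy and matplotlib, and were tested on simulated peaks and sequences. Alternatives were a minimum score of 100, an overlap of 50%, at least 2 antibodies, all gene types, a window of 250 kb, other decay lengths, positions and motif windows, each antibody left out in turn, and, added after the data were seen, a window of 1000 kb and no closest-gene rule.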

Additional observations from a re-analysis of the deposited data

How the results depend on the processing

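Of 76 alternative values of 10 results, 54 stayed within 1.5 times the count or within 1 SD over antibodies, and 22 moved. Some of the 54 could not have moved. At Sox12 stricter settings could not raise a count of 0 regions with all 3 antibodies. A window of 1000 kb could not change Sox4 or Sox12, whose stretches end within 500 kb. The SDs were wide, so a fall of the Sox11 score from 1.55 to 0.927 stayed within 1 SD (0.858). The number that stayed is therefore not a measure of stability. Region counts depended most on which start sites compete. With genes of every type, Sox4 had 3 regions and 1 with all 3 antibodies, Sox11 10 and 4. With a score of at least 100, Sox4 had 30 regions and 3 with all 3 antibodies, and Sox11 10 with all 3 antibodies. With at least 2 antibodies, Sox4 had 28 regions and Sox12 1. Within 250 kb, Sox4 had 29 and 4, Sox11 28 and 7. Without the closest-gene rule, Sox12 had 50 regions and 7 with all 3 antibodies. Leaving out each antibody in turn gave 32 to 49 regions for Sox4, 40 to 52 for Sox11 and 1 to 2 for Sox12, where the value of 1 came without ab1. The gene scores of Sox4, Sox11 and Sox12 were 0.379, 0.927 and 0.791 at a decay length of 1000 bp, where Sox4 was lowest, and 5.42, 5.90 and 1.84 at 50000 bp. Leaving out each antibody gave scores of 1.16 to 1.90, 1.53 to 1.57 and 0.953 to 1.15 for Sox4, Sox11 and Sox12, with Sox4 below Sox11 without ab1 (1.16 and 1.53) and also with at least 2 antibodies (1.17 and 1.55), and an E-box share of 45.2% to 51.5%. That share was 83.2% in whole regions and 86.1% for any CANNTG, both of which search more letters or more forms. No paired analysis was possible because the values used here come from the NEUROD2 libraries alone, with no GFP values to pair them with. The small number of ab3 peaks, 23 at these loci, limits every count of regions with all 3 antibodies.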

Other observations

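The upstream stretch of Sox11 is the only side of the 3 loci that the 500 kb limit cuts short, since on every other side another coding TSS becomes the closest within that limit. With a window of 1000 kb, 5 more regions were assigned to Sox11, from 531.0 to 590.0 kb upstream of the TSS. The farthest, chr12:27932102-27933022, was also the strongest, with a score of 1228.5 for ab1 and 514.3 for ab2. None of the 5 had a peak of ab3.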
